A study of Homo sapiens with 5 samples.

Results

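The CCN family comprises 6 secreted proteins, CCN1 (CYR61), CCN2 (CTGF), CCN3 (NOV), CCN4 (WISP1), CCN5 (WISP2) and CCN6 (WISP3). Its members on the array were all 9 probes annotated with one of these symbols, among 47231 probes in all. They were selected on detection p-values: a probe was kept where that p-value, which compares its signal with negative control beads, lay under 0.05 on at least 2 of the 4 independent arrays. This left 4 probes, 1 for CCN1, 2 for CCN2 and 1 for CCN3, among 21986 probes kept, and so 3 of the 6 genes. The family was chosen with the falls of CCN1 and CCN2 in these data already known, so the test results of its members are given as a description and not as independent evidence.

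The cells were MDA-MB-231, a widely used line from a metastatic human breast tumour that is negative for the oestrogen receptor and labelled basal. Controls were mock-treated with sterile water, and the treated cells were given fluvastatin, a statin that inhibits HMG-CoA reductase, at 10 µM, all for 24 h. The treated samples' titles, source names and characteristics name fluvastatin, but their treatment protocol field repeats the water wording of the controls, so the groups rest on the former. GEO lists 3 control and 2 fluvastatin samples of Illumina bead arrays, but control 2 equals the mean of controls 1 and 3 in 47231 of 47231 probes, so controls 1 and 3 were compared with fluvastatin arrays 1 and 2 (n = 2 each). The labels do not say whether replicates were separate cultures, and p-values then measure only the spread between these arrays, which may be technical.

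Between 43.0% and 46.9% of probes were detected per array, at median signals of 72.7 to 81.7, and log2 values correlated across kept probes with r = 0.994 between controls and 0.982 between fluvastatin arrays. Of 9 genes typical of this line, such as VIM and CD44, all 9 were kept. ESR1, PGR, CDH1 and the basal keratin genes KRT5 and KRT14 were detected on 0 of 4 arrays, while ERBB2, EPCAM and GATA3 were detected. Among 6 genes of blood, endothelial and stromal cells, 4 had no kept probe, and COL1A1 and PECAM1 had control means of 5.02 and 4.88 on the log2 scale, near background. COL1A1 had a treated mean of 5.03. The endothelial gene PECAM1 was at 5.01 and 4.74 in controls and 6.60 and 5.54 with fluvastatin, a difference of 1.19 ± 0.36 that did not pass the test (limma adjusted p = 0.0735, unadjusted 0.0169), and its part in the results was not tested.

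CCN proteins are matricellular proteins: they lie in the extracellular matrix and signal to cells rather than build the matrix. They share an IGFBP-like module, a von Willebrand factor C module, a thrombospondin repeat and, except for CCN5, a C-terminal cystine knot, and they act through integrins, heparan sulphate proteoglycans and LRP receptors. CCN1 and CCN2 are standard targets of the coactivators YAP and TAZ with TEAD factors, and are also induced through SRF with MRTF coactivators and, for CCN2, by TGF-beta. CCN3 counteracts CCN2 in several cell systems, and CCN4 and CCN5 were first described as genes induced by Wnt signalling.

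The promoter window of CCN2, the gene with the lowest fold change of the table, is printed because it holds the letters bound by TEAD factors (GGAATG), and that of CCN6 because it holds them in a gene that was hardly detected. Windows run from 250 bases before to 50 after an annotated start, 5′ to 3′ on the gene's strand, from RefSeq (GRCh38.p14), and capitals mark GGAATG on either strand. For CCN2 the window is chr6:131951323-131951622, minus strand. For CCN6 it is chr6:112053854-112054153, plus strand, at a start that lies inside the annotated span of the gene. Windows of CCN1, CCN3, CCN4 and CCN5 were not used here.
CCN2: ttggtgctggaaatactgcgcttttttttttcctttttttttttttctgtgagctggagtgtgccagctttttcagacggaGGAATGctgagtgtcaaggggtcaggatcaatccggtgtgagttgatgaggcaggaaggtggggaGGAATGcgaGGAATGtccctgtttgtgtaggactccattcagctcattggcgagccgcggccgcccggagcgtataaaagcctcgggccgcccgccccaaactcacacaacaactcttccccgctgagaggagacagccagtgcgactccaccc
CCN6: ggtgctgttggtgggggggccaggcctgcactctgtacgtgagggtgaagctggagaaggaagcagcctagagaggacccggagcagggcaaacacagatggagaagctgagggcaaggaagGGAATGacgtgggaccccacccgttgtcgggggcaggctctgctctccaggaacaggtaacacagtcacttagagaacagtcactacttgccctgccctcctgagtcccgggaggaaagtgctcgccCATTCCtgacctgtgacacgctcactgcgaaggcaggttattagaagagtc

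The CCN2 window held 3 matches to GGAATG, which began 169, 104 and 95 bases before the start. Of 35116 windows of the same length, 14.0% held at least 1 match, 1.37% at least 2 and 0.128% at least 3. CCN6 had 2, of which 1 began 128 bases before the start and 1, on the opposite strand, spanned it. A further 4 motifs were searched on both strands. CCN2 held 1 match to the SMAD letters CAGAC, 177 bases before the start and not overlapping the TEAD letters (45.3% of windows held at least 1), and 1 to TATAAA, 32 bases before it (11.5%). It held 0 matches to the AP-1 letters TGANTCA (7.71%) and 0 to the CArG box bound by SRF (1.29%). The CCN6 window held 0 matches to any of these 4. Such matches describe letters in these windows and are not shown to be sites.

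**Figure D1:**
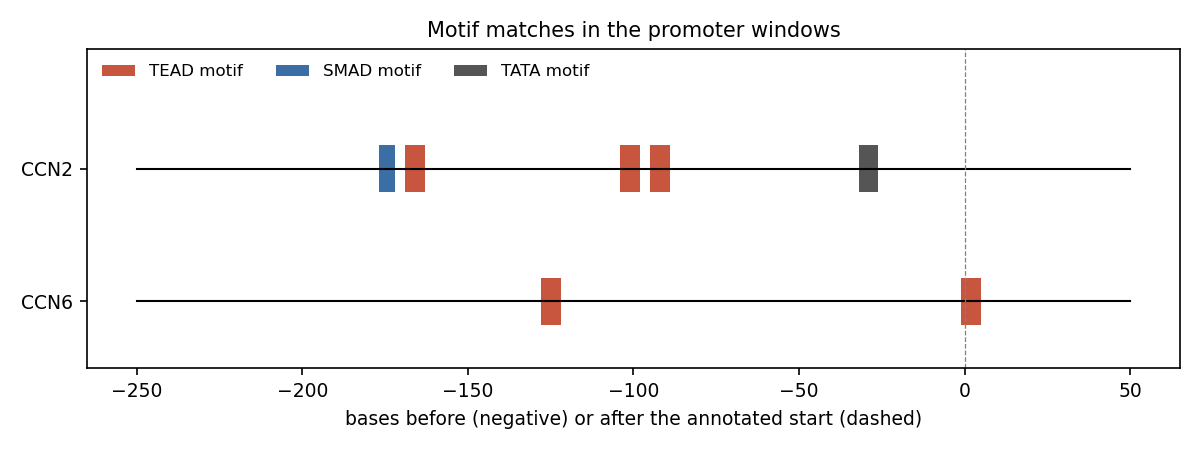
Positions of motif matches in the promoter windows of CCN2 and CCN6; the x axis gives bases before (negative) or after the annotated start, and coloured blocks mark each match at its length. CCN2 carries 3 TEAD matches between 169 and 90 bases before the start, and CCN6 carries 2, of which 1 spans the start.

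CCN2 fell with fluvastatin on both of its probes. Probe ILMN_1699829 had raw signals of 4849 and 3692 in controls 1 and 3, and of 255.1 and 213.1 in fluvastatin arrays 1 and 2, so that mean signal after treatment was 5.48% of control before any background correction. Its log2 intensities were 12.21 and 12.22 in controls and 7.40 and 7.18 with fluvastatin. Both treated arrays lay far below both controls and the groups did not overlap, yet the treated signal was still detected on both arrays. The log2 fold change was -4.92 ± 0.16 (SE), a 30.3-fold lower level, with a 95% interval from -5.32 to -4.52 (limma adjusted p = 0.00346).

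The second CCN2 probe, ILMN_2115125, had raw signals of 2629 and 1912 in controls and of 157.7 and 198.4 with fluvastatin, which left 7.84% of control. Its log2 intensities were 11.31 and 11.27 in controls and 6.49 and 7.04 with fluvastatin. The groups again did not overlap, and here fluvastatin array 1 was the lower of the treated arrays, whereas array 2 was the lower on the first probe. This probe fell by 4.53 ± 0.22 on the log2 scale (95% interval -5.08 to -3.98, limma adjusted p = 0.00396). The estimates of the 2 probes differed by 0.39, and their intervals overlapped.

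CCN1, which promotes adhesion, migration and angiogenesis through integrins, fell as well. Its probe ILMN_2188264 had raw signals of 5976 and 5058 in controls and of 615.3 and 496.1 with fluvastatin, or 10.1% of control. Log2 intensities were 12.54 and 12.67 in controls and 8.88 and 8.69 with fluvastatin, with no overlap between groups. CCN1 fell by 3.82 ± 0.16 on the log2 scale, a 14.1-fold lower level (95% interval -4.23 to -3.41, limma adjusted p = 0.00396). This interval lay apart from that of the first CCN2 probe and overlapped that of the second, and the difference between the genes was not tested. In bulk RNA, fewer cells that express a gene and less of its RNA per cell cannot be told apart.

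CCN3 changed in the opposite direction. Its probe ILMN_1787186 had raw signals of 183.0 and 144.9 in controls and of 428.1 and 309.7 with fluvastatin, 225% of control. Log2 intensities were 7.12 and 7.05 in controls and 8.29 and 7.90 with fluvastatin. Both treated arrays lay above both controls, with array 1 the higher of them. CCN3 rose by 1.01 ± 0.19 on the log2 scale, 2.01-fold (95% interval 0.54 to 1.48, limma adjusted p = 0.0248). The size of the rise was similar without control replicate 1 (1.03) and without control replicate 3 (0.97), but the call was lost in both fits. In each of them 1 control array remained and was assumed to vary like the treated arrays. The reason for the lost call was not tested. With median scaling, which moved the median of all kept probes by 0.19, CCN3 was at 1.29.

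**Figure D2:**
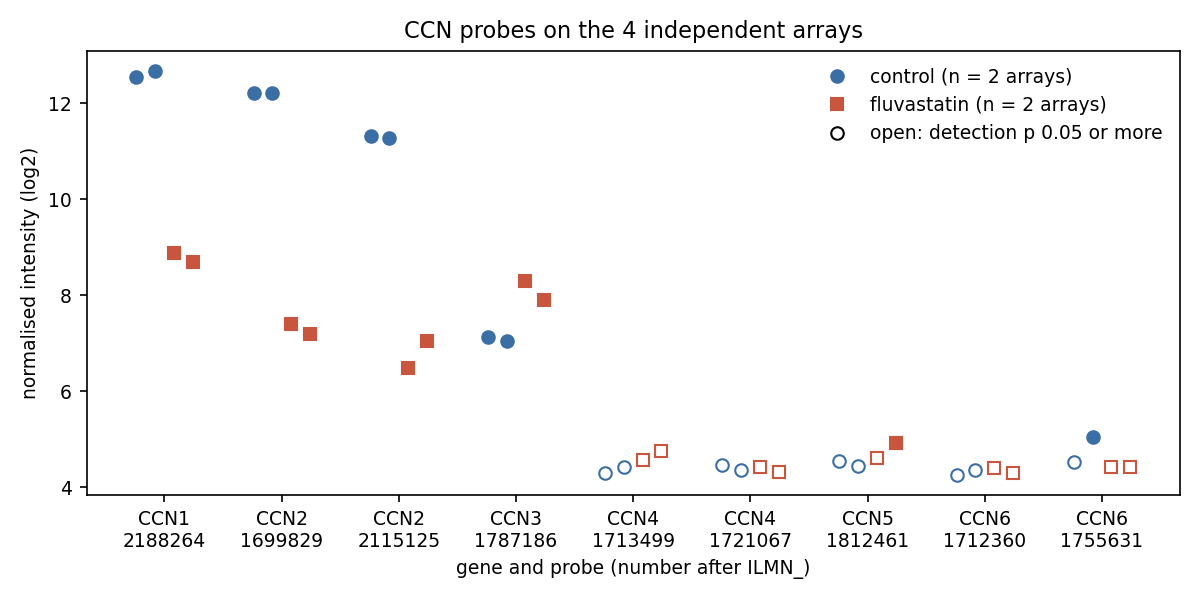
Normalised log2 intensity (y axis) of each of the 9 CCN probes (x axis) on 2 control arrays (circles) and 2 fluvastatin arrays (squares); filled symbols had a detection p under 0.05. The treated arrays lie below the controls for CCN1 and both CCN2 probes and above them for CCN3, while the 5 probes of CCN4, CCN5 and CCN6 lie between 4.25 and 5.04.

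Thus 3 of the 4 kept CCN probes were lower and 1 was higher, against 8.29% of all 21986 probes lower, 8.64% higher and 16.9% changed in either direction. The same 3 probes had both fluvastatin arrays below both controls, as 31.8% of all probes did, and CCN3 had both above, as 32.8% did. Because the family was chosen with its falls known, nothing is read from these shares. In the order of fold changes over all kept probes, the CCN2 probes had ranks 1 and 2 from the bottom and CCN1 rank 5. With each of 12080 genes at its brightest kept probe, CCN2 ranked 1 and CCN1 ranked 4 among falls, and CCN3 ranked 673 among rises. The median log2 fold change of all genes was 0.01.

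**Figure D3:**
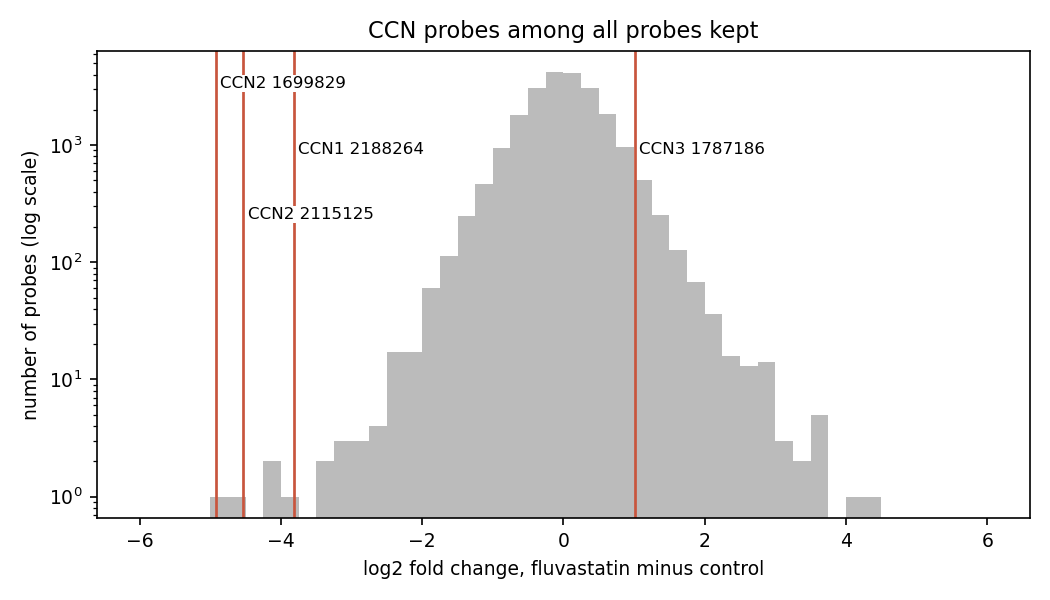
Number of kept probes (y axis, log scale) by log2 fold change, fluvastatin minus control (x axis), with red lines at the 4 kept CCN probes. CCN2 (-4.92 and -4.53) and CCN1 (-3.82) lie at the low end, and CCN3 (1.01) lies on the upper shoulder.

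CCN4, CCN5 and CCN6 stayed at or near background. CCN4 was not detected on any of the 4 arrays by either of its probes, with raw signals of 57.3 to 81.7 on ILMN_1713499 and 59.9 to 65.7 on ILMN_1721067. The CCN5 probe ILMN_1812461 had signals of 68.9 and 64.9 in controls and 69.1 and 86.3 with fluvastatin, and just fluvastatin array 2 was detected. The CCN6 probe ILMN_1755631 had 68.4 and 77.7 in controls and 60.8 and 70.8 with fluvastatin, and just control 3 was detected. These last probes were the nearest to being kept, each on 1 of 4 arrays. The other CCN6 probe, ILMN_1712360, was detected on 0 arrays, with signals of 54.4 to 61.9. By contrast, every kept CCN probe was detected on each array with a listed p-value of 0, so none lay close to the limit. The array thus gave no usable level for these 3 genes, which does not show that they are not expressed.

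The genes whose pattern was most like that of CCN1 and CCN2 were ranked by the Euclidean distance between log2 values, centred on the control mean, over the 4 arrays and 11753 genes. CCN genes and genes with provisional symbols, such as LOC or ORF names, were left out of this ranking. Since the measure follows the fold change, it is a description. For CCN2 the nearest were DKK1 (distance 1.15), a secreted Wnt antagonist, and ANKRD1 (1.45), a nuclear ankyrin repeat protein. Next came RIMS2 (2.12), a presynaptic scaffold, IL11 (2.33), a cytokine of the IL6 family, and NPPB (2.50), the brain natriuretic peptide gene. CCN1 lay at 1.56 from CCN2. The same 5 genes were nearest to CCN1, in the order RIMS2 (0.65), DKK1 (0.72), IL11 (0.83), ANKRD1 (0.85) and NPPB (1.00).

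DKK1 had log2 intensities of 12.57 and 12.59 in controls and 8.14 and 8.64 with fluvastatin. ANKRD1 went from 10.82 and 11.04 to 6.40 and 7.31. For these genes, as for the second CCN2 probe, fluvastatin array 1 was the lower treated array. RIMS2 and NPPB ended near background, at 4.53 to 5.13 on the treated arrays. In the promoter windows used here, ANKRD1 held 2 matches to GGAATG, DKK1 1 and IL11 0. Windows of RIMS2 and NPPB were not used. Over all genes tested that had a window, 15.1% of 9658 held at least 1 match, as did 16.7% of 928 genes that fell and 16.3% of 1009 that rose.

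Related genes were read at the brightest kept probe of each gene, against a background of 20.1% of 12080 genes changed, 9.65% lower and 10.5% higher. Of the 20 genes that changed in the 7 lists described here, 3 kept their call in every alternative that tested them (TNFRSF11B, IGFBP6 and THBS3), 17 lost it without at least 1 control, and 0 turned in sign. Calls were also lost for STK3 and IGFBP4 with median scaling, for VEGFA, IGFBP1 and IGFBP3 without a filter on dim probes, for ITGA5 and VEGFA without fluvastatin replicate 1, and for IGFBP1 without fluvastatin replicate 2.

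Of 18 genes for YAP, TAZ, TEAD factors and the Hippo kinases that restrain them, 16 were measured. Of these, 3 fell, 0 rose and 13 did not pass, with a median of -0.42. LATS2, a Hippo kinase, fell, with a log2 fold change of -1.16 ± 0.16, as did TEAD4 (-1.05 ± 0.15) and the upstream kinase STK3 (-0.69 ± 0.16). Other TEAD4 probes were at -1.03 and, near background, at 0.23. YAP1 had log2 values of 10.58 and 10.64 in controls and 10.01 and 10.46 with fluvastatin (-0.38 ± 0.20, limma adjusted p = 0.239). WWTR1, which encodes TAZ, was at -0.43 ± 0.38 with overlapping groups, TEAD1 at -0.56, TEAD2 at -0.24 and TEAD3 at -0.88 ± 0.41. AMOTL2 was at -0.04 ± 0.15, also with overlapping groups. The count was 0 when either control was left out and 9 without fluvastatin replicate 2.

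SRF, the transcription factor that acts with MRTF coactivators, fell by 0.86 ± 0.16 (limma adjusted p = 0.0246), and its part in the CCN changes was not tested. Its log2 values were 11.26 and 11.46 in controls and 10.49 and 10.51 with fluvastatin, without overlap, and its call was lost with median scaling, without control replicate 1 and without control replicate 3 (adjusted p = 0.0763, 0.120 and 0.218 by limma). The coactivator genes MRTFA and MRTFB were at 0.10 and -0.20 and did not pass.

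Of 13 genes for TGF-beta ligands, receptors and SMADs, 2 fell, 1 rose and 10 did not pass (median -0.14). The ligand gene TGFB2 fell by 1.57 ± 0.24, from 8.69 and 8.42 in controls to 7.26 and 6.71 with fluvastatin, and the SMAD corepressor gene SKIL fell by 1.14 ± 0.17. The co-receptor gene TGFBR3 rose by 1.14 ± 0.18. TGFB1 was close to background and at 0.14 ± 0.16, and SMAD3, which transmits the signal, was at 0.54 ± 0.28 (limma adjusted p = 0.219). Without control replicate 1 the count was 0, and without control replicate 3 it was 1, TGFB2.

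On the receiving side, 14 of 18 receptors and co-receptors were measured: 3 rose, 0 fell and 11 did not pass, with a median of 0.20. The direction of the calls was not the same in every alternative. Without background correction 4 rose and 1 fell, and the authors' log2 values gave the same counts. LRP1, an endocytic receptor of CCN2, rose by 1.25 ± 0.21, the fibronectin receptor subunit ITGA5 by 0.74 ± 0.17 and the mannose 6-phosphate receptor gene IGF2R by 0.72 ± 0.16. The integrin subunit genes through which CCN1 and CCN2 act included ITGAV at 0.61 ± 0.16 (limma adjusted p = 0.0525), ITGB5 at 0.28 ± 0.15 and ITGB1 at 0.12 ± 0.16. ITGB3 was detected on 0 control arrays and both treated ones, so it was kept through the treated arrays. Its level there was at least 1.07-fold higher and did not pass the test (limma adjusted p = 0.101). Other members lay below zero without passing the test: ITGA6 at -0.21 ± 0.39, ITGB2 at -0.19, NOTCH1 at -0.52, LRP6 at -0.47, GJA1 at -0.39 and FGFR1 at -0.35. The heparan sulphate proteoglycan gene SDC4 was at 1.05 ± 0.37 and differed between treated arrays (11.53 and 10.40, against 9.82 and 10.00 in controls). Leaving out either control gave 0 changed receptors and leaving out fluvastatin replicate 2 gave 8.

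Of 15 genes for proteins that bind CCN proteins, 6 were measured, with 2 higher, 1 lower and 3 not past the test (median 0.41). VEGFA, whose product CCN2 binds and sequesters, rose by 0.90 ± 0.20, with a second probe at 1.04. The brightest kept probe of FN1, for fibronectin, was detected on 0 control arrays and both treated ones, so it was kept through the treated arrays, where it was at least 2.16-fold higher. Over its 3 probes, FN1 was detected on 3 of the 4 arrays. TNFRSF11B, for the decoy receptor osteoprotegerin, fell by 1.84 ± 0.25, from 6.76 and 6.77 to 5.26 and 4.59, where 1 treated array was detected. Its fold change ran from -2.08 to -0.88 over the alternatives. Leaving out control replicate 3 left 1 of the binding partners changed, TNFRSF11B. Of 11 genes for proteases that cleave CCN proteins, 3 were measured (MMP1, MMP3 and MMP14). Limma called 0 of them, and 0 had an unadjusted p under 0.05. The count was 1 without fluvastatin replicate 2.

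Genes that share the IGFBP module with the CCN family were measured for 10 of 12, of which 4 fell, 1 rose and 5 did not pass (median -0.18). IGFBP3, which carries insulin-like growth factors in plasma, fell by 1.52 ± 0.31 and by 1.03 on a second probe. CRIM1, a membrane protein that binds BMPs, fell by 1.34 ± 0.15. IGFBP4 (-0.81 ± 0.15) and IGFBP1 (-1.16 ± 0.28) fell too. Treated IGFBP1 was near background, at 5.42 and 4.67, and detected on 1 array. Its fold change ran from -1.45 to -0.51 over the alternatives. IGFBP6, which prefers IGF-II, rose by 2.07 ± 0.32, from 8.72 and 8.92 to 11.36 and 10.41. The count was 1, IGFBP6, when either control was left out.

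Of 18 genes for other matricellular proteins, 5 were measured: 1 fell, 2 rose and 2 did not pass (median 0.80). THBS1, for thrombospondin, fell by 1.15 ± 0.16, from 13.54 and 13.42 to 12.36 and 12.29. THBS3 rose by 2.75 ± 0.26, from 5.43 and 4.76, where 1 control was detected, to 7.73 and 7.97. The tenascin gene TNC rose by 1.13 ± 0.16 on one probe and by 0.87 on the other. Leaving out either control also left 1 here, THBS3. Within the matricellular group, then, CCN1, CCN2 and THBS1 were lower and CCN3, THBS3 and TNC higher.

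**Figure D4:**
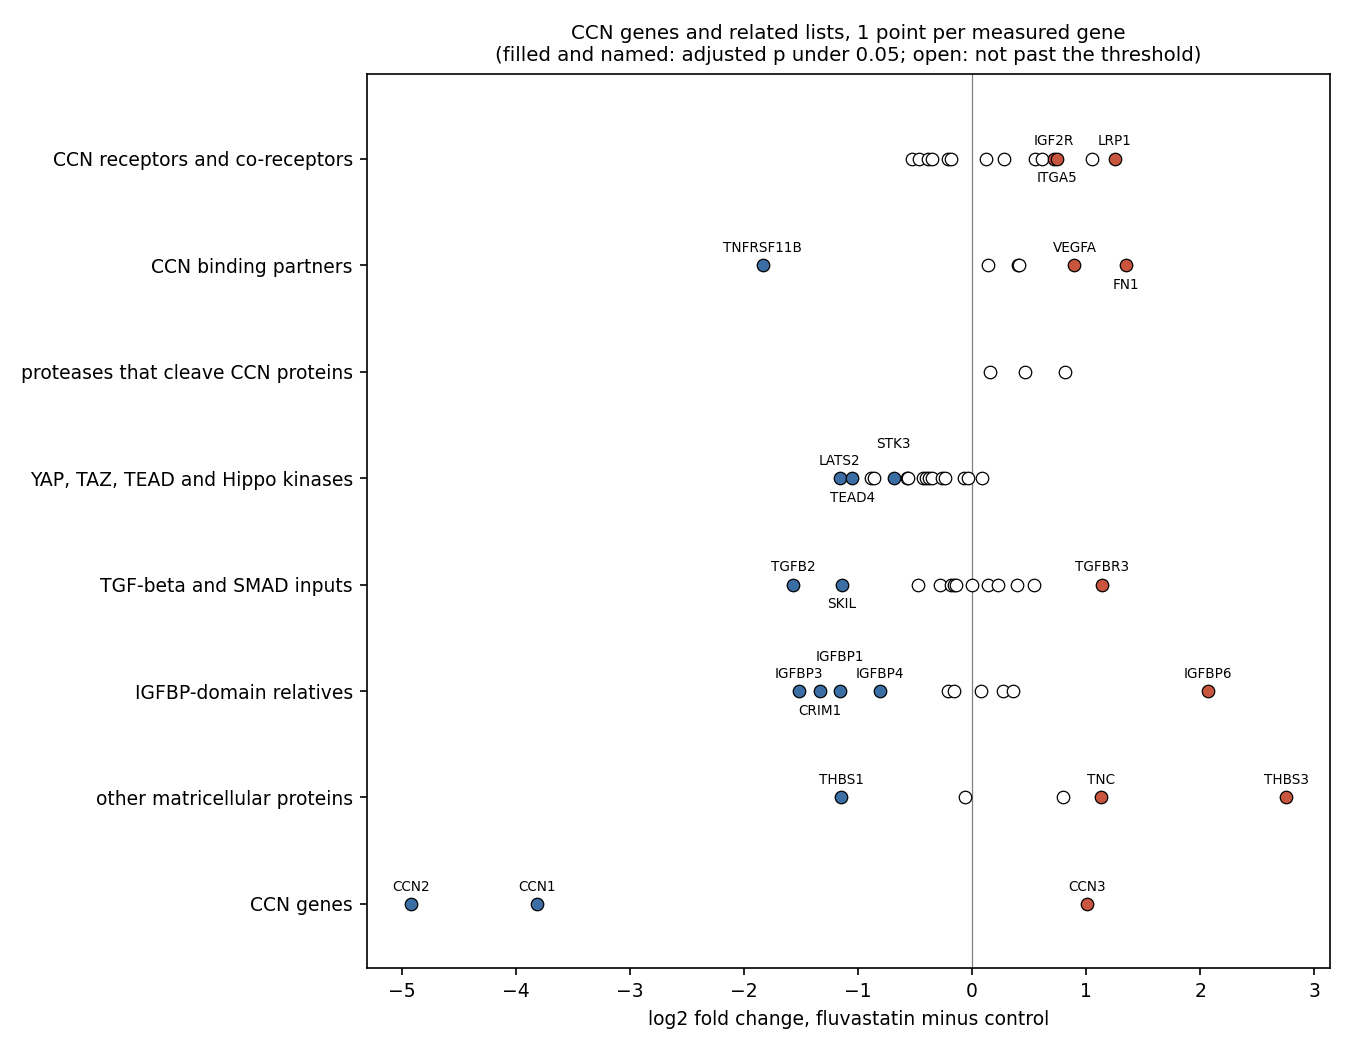
Log2 fold change, fluvastatin minus control (x axis), of each measured gene in the CCN family and in 7 related lists (rows), at the brightest kept probe; filled and named points had an adjusted p under 0.05. CCN2 (-4.92) and CCN1 (-3.82) lie below every gene of the other lists shown, the lowest of which is TNFRSF11B at -1.84.

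**Figure D5:**
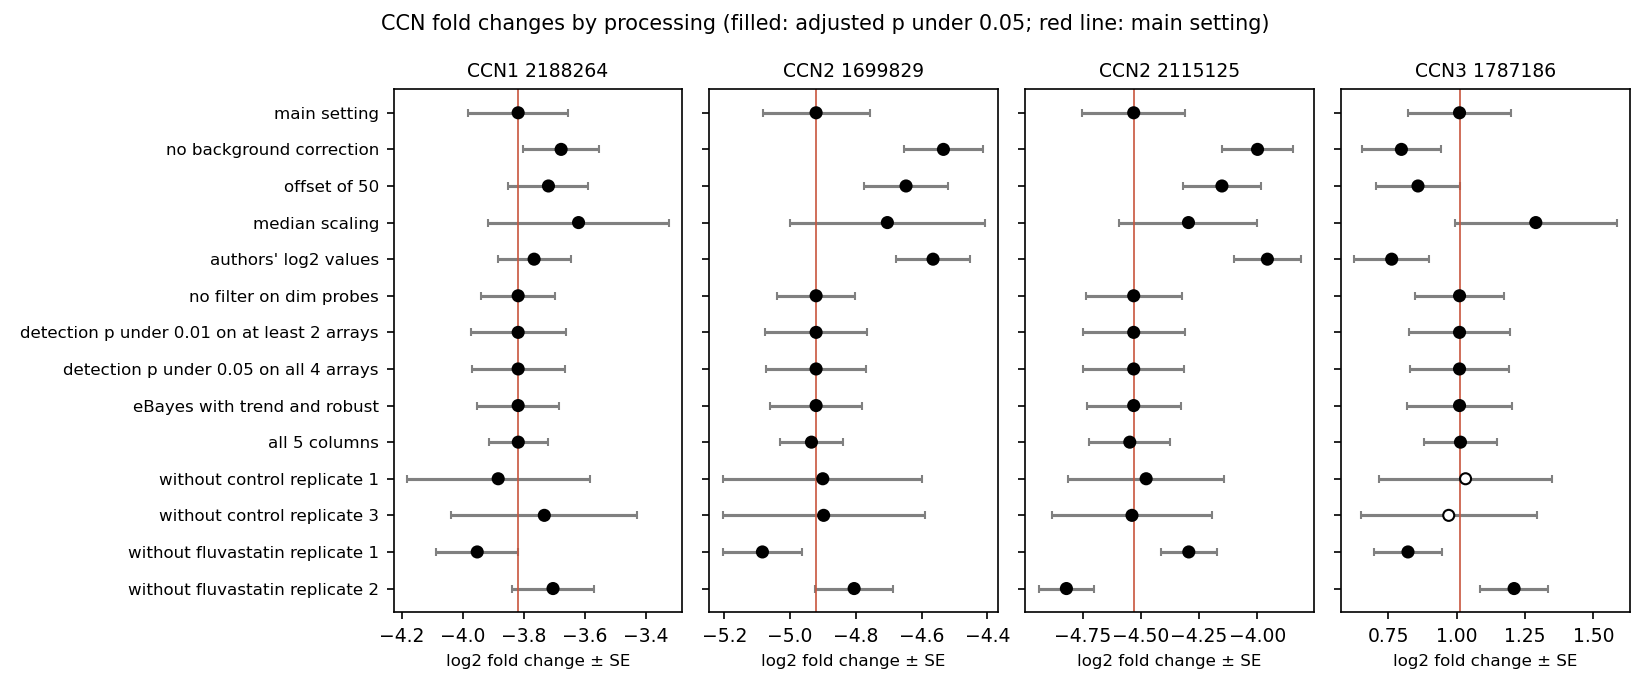
Log2 fold change ± SE (x axis) of each kept CCN probe under the main setting and 13 alternatives (rows); filled points had an adjusted p under 0.05. CCN1 stays between -3.95 and -3.62 and the CCN2 probes between -5.08 and -3.96, all filled, while CCN3 stays between 0.76 and 1.29 with 2 open points, those without 1 control.

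The falls of CCN1 and CCN2 kept their direction and their call under all 13 alternatives, at -3.95 to -3.62 for CCN1, -5.08 to -4.53 for the first CCN2 probe and -4.82 to -3.96 for the second. The CCN2 values nearest to zero came from the authors' log2 values for the second probe (-3.96) and from uncorrected signals for the first (-4.53).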

How the data were processed

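Total RNA of MDA-MB-231 cells was hybridised to Illumina bead arrays. The authors deposited a raw intensity per probe and sample, not background-subtracted or normalised as far as the values show, with a detection p-value beside it as the file headers name it; the p-value was deposited by the authors. A second deposited table holds the authors' log2 values, whose columns have nearly equal distributions. The package behind them is not given in the sources used here, and the submitters' processing notes name R 3.1.0. All 5 per-sample columns were mapped, and 0 were left unused.

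Control replicate 2 equalled the mean of controls 1 and 3 (to within 1e-06) and was left out. Intensities of the other 4 arrays were background-corrected and normalised by the neqc function (limma 3.58.1, R 4.3.3; normexp background from detection p-values, offset 16, quantile normalisation, log2). Kept probes were fitted with lmFit and eBayes (two-sided, 2 residual and 3.72 prior degrees of freedom), with Benjamini-Hochberg adjustment over all 21986 and a threshold of 0.05. Errors of fold changes are moderated standard errors, and the number of arrays limits precision. The fit was run on simulated data in which each probe had the same spread in both groups. It therefore could not test how the fit behaves where the groups differ in spread. Probe symbols came from the platform annotation through gene identifiers. In the brightest-probe rule, a gene took its kept probe of highest mean. Where a gene was not detected in a whole group, a lower bound is printed: the brighter group's mean against, in the dim group, the higher on each array of the probe's value and the lowest detected value.

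Named were all CCN probes, up to 5 changed members of each list by p, and fixed regulators (YAP1, WWTR1, TEAD1 to TEAD4, SRF, TGFB1, TGFB2). Other list members named with values, and genes given per array, were chosen after their values were seen. The members and lists were chosen with earlier results of these data known, and lists are described by counts and medians. The result of 1 further list is not reported here. Alternatives changed the background correction, scaling, filter, variance model and samples.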

Additional observations from a re-analysis of the deposited data

How the results depend on the processing

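CCN1 and both CCN2 probes kept their direction and call in 13 of 13 alternatives. CCN3 kept its call in 11 and lost it without control replicate 1 or 3, and leaving out 1 array gave 0.82 to 1.21. No paired analysis was possible because the independent arrays of the groups share just 1 replicate number. The count of changed probes was 3722, but 8927 with all 5 columns, which counts a mean as a sample, and 433 to 7046 leaving out 1 array. Of changed probes, 51.0% were higher, but 77.7% with median scaling. Leaving out 1 array gave 0 to 8 changed receptors, 1 to 3 binding partners, 0 to 1 proteases, 0 to 9 YAP and Hippo genes, 0 to 4 TGF-beta genes, 1 to 5 IGFBP-domain genes and 1 to 3 other matricellular genes. All 5 columns gave 8 receptors and 6 YAP and Hippo genes, against 3 each. Receptors numbered 5 with median scaling, with uncorrected signals, with the authors' values, at an offset of 50 and after averaging the probes of a gene. Median scaling called 1 protease, detection on all 4 arrays left 1 binding partner, and no filter left 3 IGFBP-domain genes of 5. The causes were not tested. Treated CCN2 signals were detected on both arrays but low, at 157.7 to 255.1 against array medians of 74.2 and 81.7. Without background correction the CCN2 falls were smaller, at -4.53 and -4.00. The exact fold is thus less certain than its direction.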
